A study of Mus musculus with 13 samples.

Results

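The genes described here encode the nuclear pore complex, the channel that joins the nucleus and the cytoplasm, together with proteins that sit on it. They are 31 genes chosen by name (nucleoporins and pore-associated proteins), out of 33618 Ensembl genes with a row in the deposited count table, and all 31 symbols were found in that table through the GENCODE vM39 annotation. Their mRNA was compared in parametrial white adipose tissue (pmWAT), the gonadal fat of female mice, between 7 *Lmna* fl/fl and 6 *Lmna* iADKO mice, 1 library per mouse. Both groups carried the floxed *Lmna* allele (loxP sites around 2 exons of the gene for lamins A and C), were 12 to 14 weeks old when tamoxifen began, and received 50 mg/kg tamoxifen on 5 consecutive days, with tissue taken 2 weeks posttamoxifen. The iADKO mice also carried 1 copy of *Adipoq*-CreERT2, a tamoxifen-activated recombinase driven by the adiponectin promoter and so expressed in adipocytes. The fl/fl mice had no Cre, so an effect of activated Cre itself cannot be told apart from deletion of *Lmna*.

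The pore is built from rings of scaffold nucleoporins anchored in the nuclear envelope by membrane proteins. Flexible nucleoporins rich in phenylalanine-glycine (FG) repeats fill its channel, and filaments extend from both faces. Importins and exportins carry cargo through the FG mesh, and the small GTPase Ran sets the direction of transport. On its nuclear side the pore is embedded in the lamina, the meshwork of A-type and B-type lamins, and the basket nucleoporin NUP153 binds lamins.

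The gene counts of a mouse summed to 18854223 at the lowest and 19776491 at the highest, and values are given as CPM, the count scaled to library size after TMM normalization. The TMM factors did not overlap between genotypes, at 0.892 to 1.018 in fl/fl and 1.046 to 1.102 in iADKO. This scaling lowered CPM in iADKO relative to fl/fl, and small fold changes depend on it. *Lmna* itself was at 74.7 to 98.5 CPM in fl/fl (median 83.5) and 80.1 to 109 CPM in iADKO (median 96.8), a log2 fold change of 0.19 (standard error, SE, 0.079, adjusted p = 0.0785); it passed the threshold, upward, without fl/fl 1 (0.23, adjusted p = 0.0411) and without iADKO 6 (0.24, adjusted p = 0.0208). Whole-gene counts cannot set the floxed exons apart, and *Lmna* mRNA did not fall in the mice labelled iADKO, so every direction given here rests on the labels. The fat carried its defining transcripts in both groups: 8 of 8 adipocyte markers were detected in every mouse, and all 8 were lower in iADKO. In bulk tissue, fewer cells of a type and less RNA per cell cannot be told apart. The libraries fl/fl 5 and iADKO 6 lay nearest the other genotype in adipocyte and macrophage markers, and counts of genes are given with and without them below. The numbers in the library names were grouped here into 4 series, and the labels name no such series. The groups were 706 and 707 (only fl/fl), 722 to 727 and 747 to 765 (both genotypes), and 974 and 975 (only iADKO). The mouse iADKO 1 (765) was placed with 747 to 750, and other groupings were not tried. With the series as a block, 5 pore genes were higher and 0 lower, beside 784 and 1202 of the 16753 genes tested.

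Of the 31 pore genes, 30 passed the filter on low counts and 7 had more mRNA in the iADKO-labelled mice with an adjusted p under 0.05, while 0 had less (edgeR's quasi-likelihood test with Benjamini-Hochberg adjustment over all 16753 genes tested). Among all genes tested, 14.1% were higher and 16.3% lower by the same rule. The 7 were *Aaas*, *Nup153*, *Nup62*, *Nup210*, *Nup88*, *Nup93* and *Nup107*, which come from all 6 structural parts of the pore. In *Aaas*, *Nup153*, *Nup62*, *Nup210* and *Nup88* every iADKO mouse lay above every fl/fl mouse, a pattern seen in 2.71% of all genes for higher values and in 3.93% for lower values. The median log2 fold change of the 30 genes was 0.072, beside 0.033 over all genes tested, with 22 positive and 8 negative, and 54.7% of all genes were positive. At an unadjusted p under 0.05, 9 pore genes were higher and 2 lower, beside 3585 and 3560 of the 16753 genes tested. The Wald test of DESeq2 and limma on the deposited rlog values each gave 7 higher and 0 lower.

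The count of lower genes rested on both libraries that stood nearest the other genotype. Without fl/fl 5, *Nup160*, *Nup155* and *Nup98* joined the higher genes (10 in all), and *Sec13* and *Ndc1* were lower (2 genes), without iADKO 6, *Seh1l* and *Ndc1* were (2 genes), and without both, 5 were: *Ndc1*, *Seh1l*, *Rae1*, *Sec13* and *Gle1*. The calls over all genes grew as well, from 2367 higher and 2737 lower. They were 3319 and 3285 without fl/fl 5, 2677 and 3060 without iADKO 6, and 3282 and 3910 without both. Leaving out libraries because they resemble the other group widens the difference between groups by construction.

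**Figure D1:**
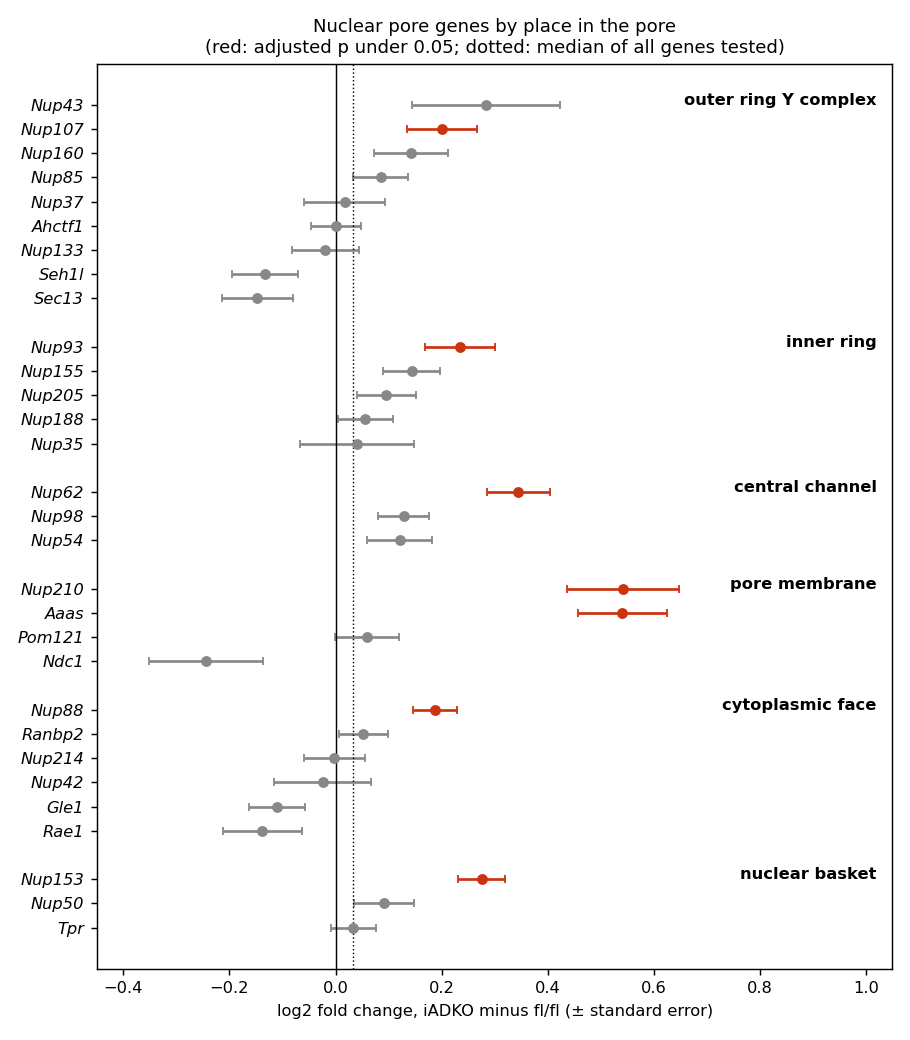
Log2 fold change (iADKO minus fl/fl, x axis) of the 30 pore genes tested, with bars of 1 standard error, grouped by place in the pore; red marks an adjusted p under 0.05 and the dotted line the median of all genes tested (0.033). The largest values, 0.54, belong to *Nup210* and *Aaas*, and the lowest, -0.24, to *Ndc1*.

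The proteins at the pore membrane held both the highest and the lowest fold changes of the whole group. *Nup210* (ENSMUSG00000030091; chromosome 6 of GRCm39, 90990050 to 91093995, minus strand) encodes a membrane-spanning glycoprotein of the pore whose level is known to differ between cell types. It ran from 12.8 to 19.0 CPM in fl/fl (median 14.1) and from 19.3 to 26.5 CPM in iADKO (median 22.2). The lowest iADKO mouse was iADKO 6 and the highest fl/fl mouse was fl/fl 5, and these neighbours were 0.268 CPM apart. The log2 fold change was 0.54 (SE 0.11, adjusted p = 0.0023), or 1.46-fold. *Aaas* (ENSMUSG00000036678; chromosome 15, 102246687 to 102259206, minus strand) encodes ALADIN, a WD-repeat protein held at the pore by NDC1 and mutated in triple A syndrome. It ran from 13.9 to 19.7 CPM in fl/fl (median 16.8) and from 21.5 to 27.3 CPM in iADKO (median 23.2), so the groups were apart by 1.80 CPM. Its log2 fold change was also 0.54 (SE 0.085, adjusted p = 6.76e-04).

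The other membrane proteins did not pass. *Ndc1*, the transmembrane nucleoporin that holds ALADIN, was at 27.2 to 45.001 CPM in fl/fl (median 39.4) and 28.1 to 38.6 CPM in iADKO (median 30.0). The lowest value of all 13 mice was that of fl/fl 5, and iADKO 6 was the highest of its group. The groups overlapped also apart from these mice, with iADKO 3 at 36.3 CPM and fl/fl 4 at 35.1 CPM. Its log2 fold change was -0.24 (SE 0.11, adjusted p = 0.0978), and without both mice -0.39 (adjusted p = 0.00072). *Pom121*, another transmembrane nucleoporin and the most abundant of these genes per length, was at 47.6 to 56.2 CPM in fl/fl (median 50.7) and 48.5 to 61.4 CPM in iADKO (median 51.9), a log2 fold change of 0.060 (SE 0.061, adjusted p = 0.474).

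In the central channel, *Nup62* (ENSMUSG00000109511; chromosome 7, 44465354 to 44481258, plus strand), the FG nucleoporin that forms the channel with NUP54 and NUP58, rose. Its values were 23.3 to 27.7 CPM in fl/fl (median 25.5) and 28.9 to 36.1 CPM in iADKO (median 31.4), with no overlap. The log2 fold change was 0.34 (SE 0.059, adjusted p = 0.00109). *Nup62* shares 554 exonic bases (12.3% of its exons) on the same strand with *Il4i1*, an amino acid oxidase gene of immune cells, whose mean rose from 2.79 ± 0.892 CPM (SD, n = 7) in fl/fl to 5.06 ± 1.19 CPM (SD, n = 6) in iADKO (adjusted p = 0.01). How reads in shared exons were counted is not given in the sources used here. The sum of *Il4i1* counts over the 13 libraries was 992, against 7212 for *Nup62*. *Nup54*, its channel partner, was at 22.7 to 27.9 CPM in fl/fl (median 24.4) and 25.8 to 28.9 CPM in iADKO (median 26.9), a log2 fold change of 0.12 (SE 0.062, adjusted p = 0.15). *Nup98*, whose transcript encodes both the FG protein NUP98 and the scaffold protein NUP96, had a log2 fold change of 0.13 (SE 0.047, adjusted p = 0.0535).

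*Nup58*, the remaining channel gene, was the member that could not be tested: 6 reads in all 13 libraries were counted on it. In the annotation, 1756 of its exonic bases (48.8%) also belong to *Gm49336*, a protein-coding gene on the same strand with 6706 counts. *Gm49336* had a log2 fold change of 0.16 (SE 0.069, adjusted p = 0.0879), with 22.4 to 27.2 CPM in fl/fl and 24.1 to 31.8 CPM in iADKO. This gene is named because of that overlap and is no member.

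The nuclear basket, the filaments on the side of the lamina, had a single gene past the threshold. *Nup153* (ENSMUSG00000021374; chromosome 13, 46830473 to 46881492, minus strand), the lamin-binding nucleoporin, was at 61.9 to 68.9 CPM in fl/fl (median 65.3) and 73.1 to 84.7 CPM in iADKO (median 79.1). The gap between the groups was 4.18 CPM, and the log2 fold change was 0.28 (SE 0.045, adjusted p = 7.94e-04). *Nup153* shares 1073 exonic bases (9.57%) with *Fam8a1* on the opposite strand. *Tpr*, the coiled-coil protein that forms the basket's struts, was at 163 to 178 CPM in fl/fl (median 168) and 161 to 184 CPM in iADKO (median 174), a log2 fold change of 0.034 (SE 0.043, adjusted p = 0.574). *Nup50*, a basket protein that helps release import cargo, had a log2 fold change of 0.092 (SE 0.056, adjusted p = 0.228).

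On the cytoplasmic face, where exported RNA is released, 1 of 6 genes passed and 4 had negative fold changes. *Nup88* (ENSMUSG00000040667; chromosome 11, 70833884 to 70860815, minus strand), which anchors the NUP214 filament, was at 37.6 to 43.4 CPM in fl/fl (median 39.0) and 43.8 to 46.0 CPM in iADKO (median 45.1). The groups were only 0.385 CPM apart at their edges, between fl/fl 7 and iADKO 2, and the log2 fold change was 0.19 (SE 0.041, adjusted p = 0.00466). *Ranbp2*, the SUMO ligase also called NUP358 that makes up the cytoplasmic filaments, was at 175 to 190.4 CPM in fl/fl (median 185) and 177 to 204 CPM in iADKO (median 191), a log2 fold change of 0.052 (SE 0.046, adjusted p = 0.409). *Nup214* was near 0 (log2 fold change -0.0023, SE 0.058), as was *Nup42* (-0.025, SE 0.091). The mRNA export factors *Gle1* and *Rae1* had log2 fold changes of -0.11 (SE 0.052, adjusted p = 0.123) and -0.14 (SE 0.074, adjusted p = 0.171).

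The inner ring, which lines the membrane and carries the channel proteins, had 5 positive fold changes out of 5, from 0.040 for *Nup35* to 0.24 for *Nup93*. *Nup93* (ENSMUSG00000032939; chromosome 8, 94941089 to 95044987, plus strand), the ring's linker to the channel, was at 17.1 to 22.8 CPM in fl/fl (median 18.5) and 20.8 to 23.6 CPM in iADKO (median 22.6). The mouse fl/fl 1 lay inside the iADKO range and the other fl/fl mice lay below it, and the log2 fold change was 0.24 (SE 0.065, adjusted p = 0.0153). It did not pass when low-count genes were kept (adjusted p = 0.0564) or with the series of library numbers as a block (adjusted p = 0.053). *Nup188*, the most abundant inner ring gene per length, was at 40.8 to 48.8 CPM in fl/fl (median 45.2) and 42.1 to 49.3 CPM in iADKO (median 46.4), a log2 fold change of 0.056 (SE 0.053, adjusted p = 0.431). *Nup155* and *Nup205* had log2 fold changes of 0.14 (SE 0.053, adjusted p = 0.0549) and 0.096 (SE 0.056, adjusted p = 0.204).

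The outer ring, built from copies of the Y-shaped complex, had 1 gene past the threshold of 9, and its fold changes spread on both sides of 0. *Nup107* (ENSMUSG00000052798; chromosome 10, 117586400 to 117628692, minus strand), a stem subunit of the Y, was at 14.3 to 18.3 CPM in fl/fl (median 15.6) and 16.6 to 19.5 CPM in iADKO (median 17.9). The mouse fl/fl 7 lay inside the iADKO range, the other fl/fl mice below it, and the log2 fold change was 0.20 (SE 0.066, adjusted p = 0.0338). This call was the least stable of the 7: it was lost when any of 8 single libraries was left out (fl/fl 1, 2, 3, 4 or 6, or iADKO 1, 3 or 5), with adjusted p of up to 0.0795. It was also lost when low-count genes were kept (adjusted p = 0.131), with the series of library numbers as a block (adjusted p = 0.106), with a surrogate variable (adjusted p = 0.131) and without both fl/fl 5 and iADKO 6 (adjusted p = 0.0632). *Nup43*, with the largest fold change of the Y genes, was at 3.04 to 5.37 CPM in fl/fl (median 4.46) and 4.28 to 6.52 CPM in iADKO (median 5.17), a log2 fold change of 0.28 (SE 0.14, adjusted p = 0.136).

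*Sec13* and *Seh1l*, Y subunits that also serve outside the pore in the nutrient-sensing GATOR2 complex, were the lowest of the ring. *Sec13*, which is a coat protein of vesicles leaving the endoplasmic reticulum as well, was at 51.4 to 71.3 CPM in fl/fl (median 64.8) and 54.4 to 61.2 CPM in iADKO (median 58.7), a log2 fold change of -0.15 (SE 0.067, adjusted p = 0.11). The lowest of all 13 values was that of fl/fl 5. *Seh1l* had a log2 fold change of -0.13 (SE 0.062, adjusted p = 0.12), and its highest value was that of iADKO 6, at 76.2 CPM. *Nup160* and *Nup85* were at 0.14 (SE 0.070) and 0.085 (SE 0.051) on the log2 fold change scale, and *Nup37*, *Ahctf1* (ELYS, which starts pore assembly on chromatin) and *Nup133* lay between -0.019 and 0.017.

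**Figure D2:**
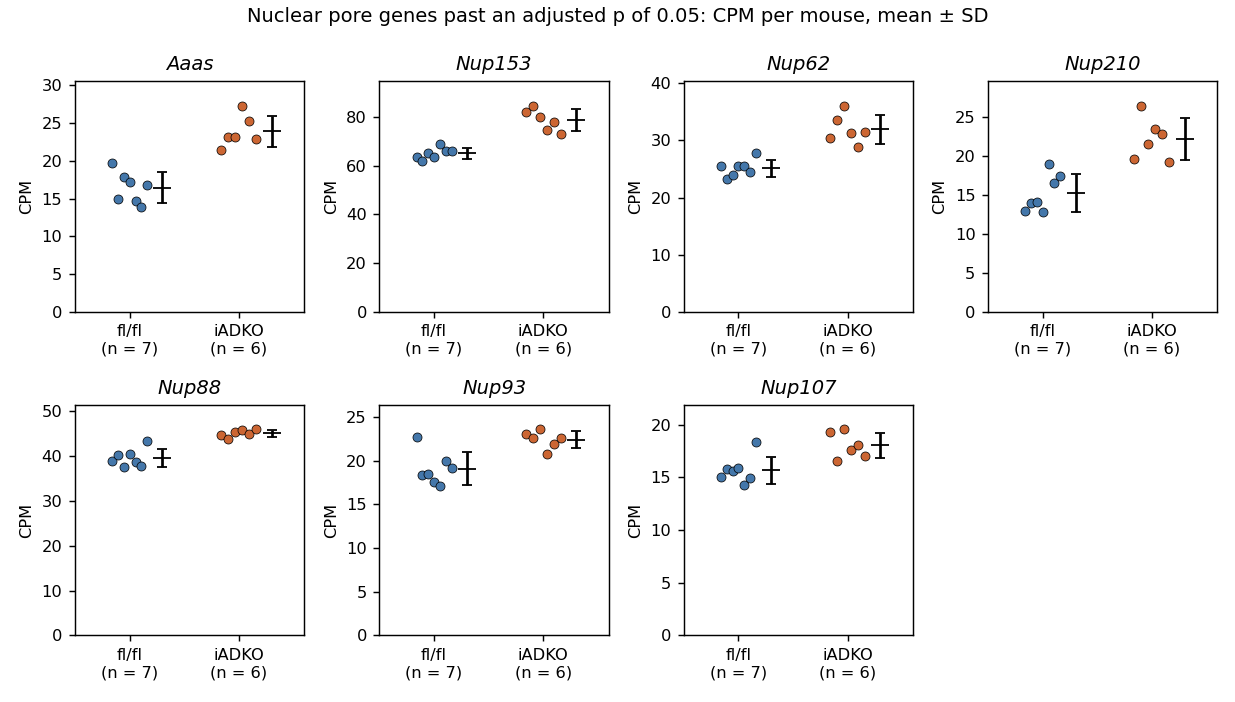
CPM per mouse (points) of the 7 pore genes with an adjusted p under 0.05 in fl/fl (blue, n = 7) and iADKO (orange, n = 6), with mean ± SD beside the points and axes from 0. In *Aaas*, *Nup153*, *Nup62*, *Nup210* and *Nup88* the groups do not overlap, and in *Nup93* and *Nup107* a single fl/fl mouse lies in the iADKO range.

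The 5 genes without overlap kept an adjusted p under 0.05 in all 23 alternative fits, which included 13 that each left out 1 library. They were picked for their separation in these same mice, and leaving out 1 mouse keeps that separation in the CPM given. The outcome of those 13 fits was thus partly set by the choice. Over all 23 fits the log2 fold change was 0.35 to 0.62 for *Nup210*, 0.37 to 0.60 for *Aaas*, 0.24 to 0.38 for *Nup62*, 0.195 to 0.296 for *Nup153* and 0.13 to 0.21 for *Nup88*. Within the library series that held both genotypes, 21 of the 30 pore genes had a positive difference in mean log2 CPM, in each series. The share over all genes within a series was not computed, and over all 13 mice 54.7% of all genes were positive. These counts are therefore a description. The 7 genes past the threshold were chosen on these same mice, so their values within a series are a description. In the series with 2 mice of each genotype their differences ran from 0.16 (*Nup153*) to 0.65 (*Aaas*). In the series with 3 fl/fl mice and 2 iADKO mice they ran from 0.18 (*Nup88*) to 0.73 (*Nup210*).

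For the genes whose groups do not overlap, the DNA just before the start of the canonical transcript was read from GRCm39, to show whether they share known promoter letters. Capitals mark CCAAT or its reverse complement ATTGG, the box bound by NF-Y. Only bases outside annotated exons are given, which leaves none of the 100 bases before the *Aaas* start.
*Nup88* (chr11:70860816-70860915, minus strand): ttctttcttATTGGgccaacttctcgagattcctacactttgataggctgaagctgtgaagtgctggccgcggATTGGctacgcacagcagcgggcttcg
*Nup62* (chr7:44465254-44465316, plus strand): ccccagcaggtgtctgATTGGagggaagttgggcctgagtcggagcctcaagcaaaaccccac
*Nup153* (chr13:46881493-46881592, minus strand): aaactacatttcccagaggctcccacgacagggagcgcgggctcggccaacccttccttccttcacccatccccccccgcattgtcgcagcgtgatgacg
*Nup210* (chr6:91093996-91094079, minus strand): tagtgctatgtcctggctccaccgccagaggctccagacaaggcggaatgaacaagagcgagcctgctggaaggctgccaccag
*Nup88* held the box 2 times, starting 91 and 27 bases before the start, and *Nup62* held it once, 84 bases before. The annotated gene *Il4i1* begins at the same base as *Nup62* (44465354, plus strand), so the *Nup62* stretch lies before both genes. The windows of *Nup153* and *Nup210* held none of the 7 motifs searched.

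Over a longer window, 250 bases before and 50 bases from the start on, 12 of 30 tested pore genes held CCAAT on either strand, beside 39.1% of the 14133 tested protein-coding genes. Of the 7 genes past the threshold, *Nup62*, *Nup88* and *Nup93* did. The core letters bound by ETS factors, CCGGAAG, were in 11 of 30 pore promoters, *Aaas* and *Nup107* among them, beside 14.1% of all. The NRF1 palindrome, GCGCA followed directly by its reverse complement TGCGC, was in 2 (*Nup107* and *Nup50*; 1.63% of all), and the cyclic AMP response element TGACGTCA was in 4, none of them past the threshold (2.99% of all). The GC box GGGCGG was in 19 (55.8% of all), TATAAA in 1 (8.36% of all), and the E2F letters TTTCCCGC in 0 (1.83% of all). The median ratio of observed to expected CpG was 0.82 in the pore promoters and 0.68 over all. A match is a description of these letters and shows no binding.

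The pore genes differed widely in level. Per kilobase of annotated exon in fl/fl, *Sec13* (15.8 ± 1.63 CPM per kb; SD, n = 7), *Tpr* (15.0 ± 0.441), *Ranbp2* (13.9 ± 0.474) and *Seh1l* (12.0 ± 0.539) were highest. *Nup42* (0.815 ± 0.0608 CPM per kb) and *Nup210* (1.34 ± 0.211) were the lowest of the 30. The difference between *Sec13* and *Tpr* was smaller than the SD of *Sec13* but larger than that of *Tpr*. The genes that rose came from the middle and the bottom of this order. In fl/fl, *Nup153* was at 5.81 ± 0.204 CPM per kb (SD, n = 7), *Aaas* at 5.80 ± 0.724, *Nup62* at 5.58 ± 0.324 and *Nup88* at 4.30 ± 0.215. *Nup107* was at 2.99 ± 0.245 and *Nup93* at 2.98 ± 0.295 in the same mice. In iADKO, *Aaas* was at 8.44 ± 0.729 CPM per kb (SD, n = 6), *Nup62* at 7.09 ± 0.562, *Nup153* at 7.03 ± 0.391 and *Nup88* at 4.90 ± 0.0874. There *Nup93* was at 3.51 ± 0.151, *Nup107* at 3.43 ± 0.227 and *Nup210* at 1.95 ± 0.236. The 4 most abundant genes per length had log2 fold changes from -0.15 to 0.052. The exon length used here joins the exons of every annotated isoform, so the levels per kilobase depend on the annotation.

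**Figure D3:**
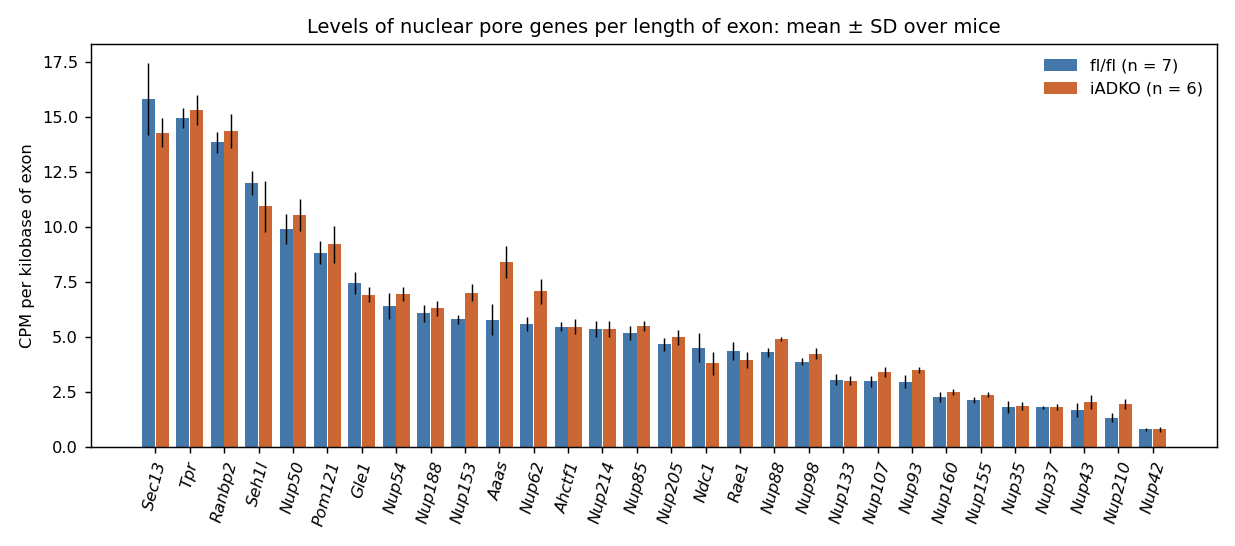
Levels of the 30 tested pore genes as CPM per kilobase of annotated exon (bars, mean; error bars, SD) in fl/fl (n = 7) and iADKO (n = 6), ordered by the fl/fl mean. *Sec13*, *Tpr* and *Ranbp2* stand highest, and the iADKO bars of *Aaas*, *Nup62* and *Nup153* rise above their neighbours.

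As a group the pore mRNAs varied little between mice. Their mean log2 CPM was 5.01 ± 0.044 (SD, n = 7) in fl/fl and 5.11 ± 0.037 (SD, n = 6) in iADKO, with ranges of 4.95 to 5.08 and 5.07 to 5.17 that overlapped. After each genotype's mean was removed, the 435 pairs of pore genes had a median correlation of 0.13 over the 13 mice, from -0.84 to 0.78, so they did not move as 1 block. *Nup50* (0.76) and *Pom121* (0.75) followed the mean of the other pore genes most closely, while *Nup210* ran against it (-0.49). These mice share a normalization, and the values are descriptions.

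Marker genes of other cells moved with genotype as well. Of 9 macrophage markers 6 were higher in iADKO and 0 lower, and their summed level was 2140 to 5601 CPM in fl/fl and 3312 to 5733 CPM in iADKO. Of 5 T cell markers 2 were higher (14.0 to 24.9 and 26.7 to 30.7 CPM), and of 5 B cell markers 2 were higher (20.8 to 57.5 and 37.95 to 84.2 CPM). Of 9 proliferation genes 6 were higher (30.2 to 54.9 and 45.5 to 71.3 CPM). All 8 adipocyte markers were lower (17964 to 27891 CPM in fl/fl and 11280 to 19814 CPM in iADKO), and 3 of 5 endothelial markers were lower (731 to 988 and 722 to 851 CPM). None of 6 progenitor and fibroblast markers (5139 to 8151 and 4519.9 to 7744 CPM), 5 mesothelial markers (312 to 651 and 280 to 754 CPM), 5 smooth muscle markers (449 to 957 and 590.2 to 2216 CPM) or 5 skeletal muscle markers (17.0 to 354 and 10.7 to 197 CPM) passed. A single marker, *Myh4* of skeletal muscle, was at 0 in some mice. The part of these shifts in the pore genes was not tested. Values follow for both mice that crossed in macrophage markers, as a description. In fl/fl 5, whose mean log2 CPM of macrophage markers (8.38) exceeded that of 4 of the 6 iADKO mice, *Aaas* was at 14.7 CPM, *Nup62* at 25.6 CPM, *Nup88* at 38.7 CPM, *Nup93* at 17.1 CPM and *Nup107* at 14.3 CPM, inside or at the bottom of the fl/fl range. *Nup210* and *Nup153* were highest of fl/fl in that mouse, at 19.0 and 68.9 CPM. In iADKO 6, with the fewest macrophage transcripts of its group (7.77), *Nup210* and *Nup153* were the lowest of iADKO, at 19.3 and 73.1 CPM, and *Nup88* was the highest, at 45.96 CPM. *Aaas* (22.9 CPM), *Nup62* (31.5 CPM), *Nup93* (22.6 CPM) and *Nup107* (17.0 CPM) lay inside the iADKO range in that mouse.

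**Figure D4:**
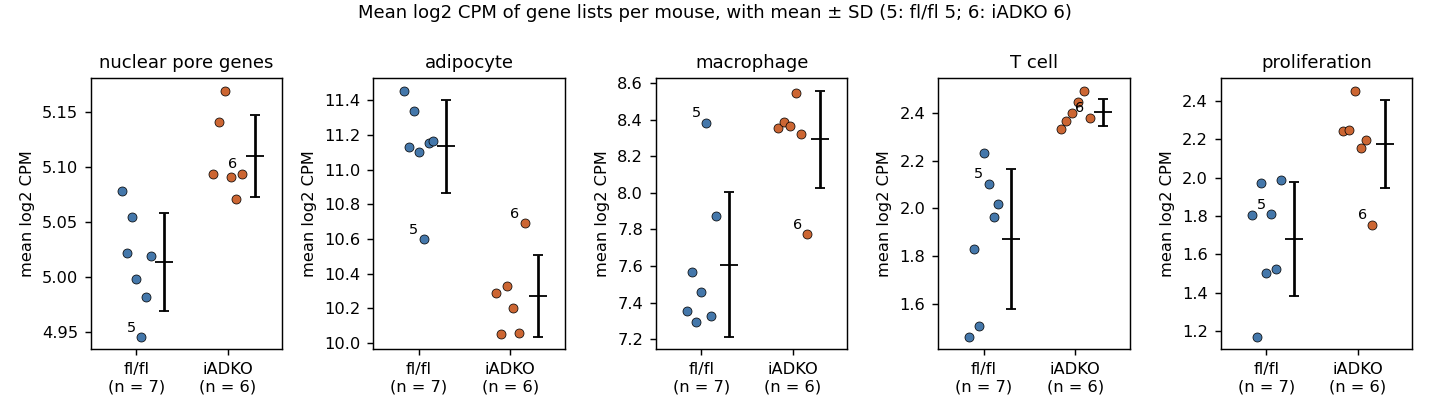
Mean log2 CPM per mouse (points, with mean ± SD) of the 30 tested pore genes and of marker lists for adipocytes, macrophages, T cells and proliferation; 5 and 6 mark fl/fl 5 and iADKO 6. The pore genes of fl/fl 5 have the lowest mean of all 13 mice (4.95), while its macrophage mean lies among the iADKO mice.

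Among genes for transport factors, a name used here to include other pore-linked proteins, a smaller share passed than over all genes, a difference that was not tested. Of 46 genes for transport receptors, the Ran cycle, mRNA export and other pore-linked proteins, all 46 were tested, 4 were higher and 5 lower, or 8.7% and 10.9%, beside 14.1% and 16.3% of all genes tested. Their median log2 fold change was 0.020. Among 16 import receptors 0 were higher and 2 lower. *Kpna6*, an importin alpha, fell from a mean of 152 ± 21.5 CPM (SD, n = 7) in fl/fl to 119 ± 5.75 CPM (SD, n = 6) in iADKO, by 0.35 on the log2 scale (SE 0.087, adjusted p = 0.00875), and *Ipo11* fell by 0.22 on the log2 scale (adjusted p = 0.0142). Of 7 export receptors, *Xpo1* (CRM1, the main protein exportin) rose by 0.19 (adjusted p = 0.0219), while *Xpo7* and the tRNA exportin gene *Xpot* fell by 0.12 and 0.15 (adjusted p = 0.034 and 0.0416). None of the 6 Ran cycle genes passed, and 3 of them had an unadjusted p under 0.05, as did 7145 of the 16753 genes tested. Of 10 mRNA export genes 3 were higher. *Sem1*, which encodes a small subunit of the TREX-2 complex and of the proteasome, went from 39.2 ± 2.11 CPM to 47.0 ± 3.70 CPM without overlap, a log2 fold change of 0.26 (SE 0.056, adjusted p = 0.00409). *Nxt1*, the partner of the mRNA export receptor NXF1, rose by 0.28 (adjusted p = 0.018), and the RNA helicase gene *Ddx39b* rose by 0.12 (adjusted p = 0.0355). *Tmem33* fell by 0.17 (adjusted p = 0.0466). The calls among these genes depended on the fit: with the series of library numbers as a block 0 were higher and 0 lower, and with no filter on low counts 1 was higher and 2 lower. Of the 5 lower genes, 2 were left without fl/fl 1, 2 or 3 or iADKO 1, 2, 3 or 5, and 3 without fl/fl 6 or 7 or iADKO 4, while 8 were lower without fl/fl 5.

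**Figure D5:**
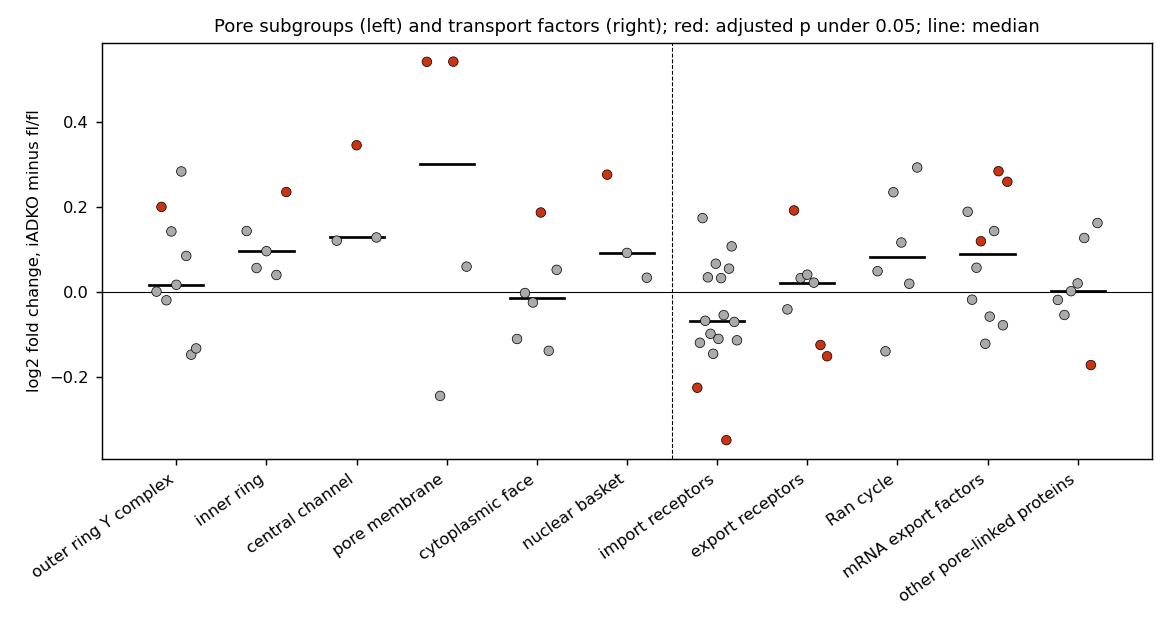
Log2 fold change (iADKO minus fl/fl, y axis) of each tested gene in the 6 parts of the pore (left of the dashed line) and in 5 lists of transport factors (right); red marks an adjusted p under 0.05 and horizontal lines the list medians. All 7 red points on the left are positive, while those on the right are 4 positive and 5 negative.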

How the data were processed

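Bulk RNA-Seq of pmWAT from 13 female mice was analyzed, 7 labelled fl/fl and 6 labelled iADKO. Per the labels and the study's methods, strand-specific mRNA libraries were aligned to mm39 with STAR 2.7.11a after FastQC 0.12.1 and tested with DESeq2; the counter, annotation and DESeq2 design are not given in the sources used here. The authors deposited raw counts per Ensembl gene, without normalization, and log2 values (DESeq2's rlog) made from them. Rlog values recomputed from the counts differed from the deposited ones by at most 4.66e-08. Symbols and coordinates were taken from GENCODE vM39 (GRCm39, the same assembly as mm39), which held 33184 of 33618 identifiers. In R 4.3.3, edgeR 4.0.16's filterByExpr left 16753 genes, counts were normalized by TMM, and the genotypes were compared by the robust quasi-likelihood test with Benjamini-Hochberg adjustment over all genes (threshold 0.05). Standard errors come from the fold change and the test statistic, and a prior count of 2 was used for log2 CPM. The script was tested on simulated data.

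The alternatives were DESeq2 1.42.0, its size factors, limma 3.58.1 on rlog, no filter, at least 10 counts in every sample, no mitochondrial genes, the replicate number or the library-number series as a block, 1 surrogate variable (sva 3.50.0) and each library left out. Leaving out both fl/fl 5 and iADKO 6 was added after seeing the data. Genes and lists were chosen with earlier results of these data known. Values were given for members past the threshold and, in each part of the pore, for the gene with the largest fold change and the gene with the highest level per length; others, chosen after their values were seen, are *Ndc1*, *Seh1l*, *Rae1*, *Gle1* and those given only by fold change. Transport factors were named where they passed, up to 3 per direction and list, and *Gm49336* and *Il4i1* for their overlap with members.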

Additional observations from a re-analysis of the deposited data

Results flagged for a closer look

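In 4 of the 62 groups of pore gene or *Lmna* values examined, a single mouse lay far from the others by Dixon's criterion, which chance gives for about 1 in 20 groups. *Nup107* was at 18.3 CPM in fl/fl 7, with the next fl/fl mouse at 15.8 CPM. *Nup160* was at 28.2 CPM in fl/fl 5, with the next at 23.1 CPM, and without this mouse its log2 fold change was 0.20 (adjusted p = 0.00618) in place of 0.14 (adjusted p = 0.135). *Seh1l* was at 76.2 CPM in iADKO 6, with the next at 64.4 CPM, and without this mouse its log2 fold change was -0.19 (adjusted p = 0.00677) in place of -0.13. *Ahctf1* was at 73.3 CPM in iADKO 4, below the next iADKO mouse at 84.7 CPM.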

How the results depend on the processing

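The count of higher pore genes (7) was 5 to 9 in the fits other than those that left out 1 library, and 6 to 10 in those, with 10 without fl/fl 5; the count of lower ones was 0, or 0 to 2 with 1 library left out, and 5 without both fl/fl 5 and iADKO 6. Over all genes, 2367 higher and 2737 lower became 784 and 1202 with the series of library numbers as a block and 1090 and 1342 with 1 surrogate variable; with 1 library left out they were 1769 to 3319 and 2216 to 3285, highest without fl/fl 5. Of the transport factors (4 higher, 5 lower), 1 and 2 passed with no filter on low counts, 0 and 0 with the series as a block, and 2 and 0 with 1 surrogate variable. With 1 library left out they were 3 to 6 and 2 to 8, and 8 were lower without both fl/fl 5 and iADKO 6. *Lmna* kept a positive log2 fold change, 0.15 to 0.24 with 1 library left out, and passed without fl/fl 1 (0.23), without iADKO 6 (0.24) and without both fl/fl 5 and iADKO 6 (0.19, adjusted p = 0.0344).

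In a fit blocked on replicate number (replicate block, fl/fl 7 left out), 7 pore genes were higher and 0 lower, and 2 transport factors were lower. Correlations between mice were taken over all genes tested, on log2 CPM after each gene's genotype mean was removed. On these residuals, same-numbered mice correlated at -0.026 to 0.22 (mean 0.11, beside -0.020 for other pairs). Of the 6 iADKO mice, 2 correlated best with their own number. Of the 6 same-numbered pairs, 3 lay within 1 library series. The labels do not say what a number marks and not every pair correlated, so the numbers were not taken to pair the mice.

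Pore genes that changed sign were near 0 and did not pass. *Ahctf1* (0.0010) was -0.017 with DESeq2's size factors, -0.014 with DESeq2 and with limma, -0.012 with no filter and -0.035 without both fl/fl 5 and iADKO 6. *Nup37* (0.017) was -0.00062 with the size factors, -0.0015 with limma, -0.0094 with the series as a block and -0.019 without both mice. *Nup35* (0.040) was -0.015 with the series and -0.014 without both mice. *Nup133* (-0.019) was 0.090, *Nup214* (-0.0023) 0.019 and *Nup42* (-0.025) 0.018 with 1 surrogate variable; *Nup214* was 0.0034 with at least 10 counts in every sample and *Nup42* 0.0069 with the series. With 1 library left out, *Ahctf1* ranged from -0.012 to 0.039, *Nup37* from -0.0039 to 0.058, *Nup35* from -0.012 to 0.084, *Nup133* from -0.053 to 0.0058, *Nup214* from -0.033 to 0.024 and *Nup42* from -0.067 to 0.038. The cause of these shifts was not tested. *Nup58*, with 6 counts, could not be tested under any setting that filtered low counts.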
